A study of Saccharomyces cerevisiae with 8 samples.

Results

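The large subunit of the cytosolic ribosome of Saccharomyces cerevisiae is built on 25S, 5.8S and 5S ribosomal RNA from the proteins encoded by the RPL genes and by the stalk genes RPP0, RPP1A, RPP1B, RPP2A and RPP2B. Members were taken by name: every gene that the authors' comparison tables annotate as RPL followed by a number, with or without A or B, and the 5 stalk genes. This gave 80 genes of 6696 counted regions, 75 with RPL names and 5 of the stalk. Of these, 70 form 35 pairs of A and B paralogs and 10 have no partner under the rule, namely RPL3, RPL5, RPL10, RPL25, RPL28, RPL30, RPL32, RPL38, RPL39 and RPP0. RNA was sequenced from W303 cells lacking GRR1, the F-box subunit of an SCF ubiquitin ligase, and from wild-type (WT) cells of the same background. Cultures in synthetic complete (SC) medium with glucose at 2% were kept at 30 °C. At an OD600 of 0.2 they received tunicamycin at 1 µg/ml, an inhibitor of N-glycosylation that burdens the endoplasmic reticulum with unfolded protein. The 4 groups were grr1-deficient cells at 4 h, grr1-deficient cells at 0 h, WT cells at 4 h and WT cells at 0 h, with 2 biological replicates each and 8 libraries in all. The labels give no other allele, and they do not state how many clones of the grr1-deficient strain were used. No untreated 4 h group was analysed here, so the drug and time in culture cannot be told apart.

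A large share of a growing yeast cell's transcripts encodes ribosomal proteins, and the genes are transcribed together. Rap1, Fhl1 and Ifh1 sit at most of their promoters, Sfp1 and the TOR kinase pathway link them to growth, and their transcripts fall in many stresses. Most of the genes were duplicated with the genome of an ancestor of this yeast, so that an A and a B copy encode the same or nearly the same protein, while the proteins without a duplicate depend on 1 gene. The proteins differ in place and task: some shape the catalytic centre, some line the exit tunnel of the nascent chain, some carry 5S RNA, and the acidic stalk proteins recruit translation factors.

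Depth lay between 4885844 and 12380049 gene reads per library, and the least-read member in any library, RPL22B, still had 98 reads. In the grr1-deficient strain GRR1 had 6 and 12 reads at 4 h and 2 and 3 at 0 h. In WT it had 1794 and 1829 reads at 4 h and 1179 and 1384 at 0 h. Mitochondrially encoded reading frames without Q0092 set grr1-deficient replicate 2 apart from the other libraries. They took 0.0008% of its gene reads at 4 h and 0.0039% at 0 h, against 13.4% and 10.8% in replicate 1 and between 1.72% and 5.03% in WT libraries. The part of this gap in the results was not tested. Without both libraries of that replicate the members' median log2 values were −1.79, −4.62, 2.82, 1.67 and −1.14 in the 5 comparisons in the order given below, against −1.60, −4.59, 2.99, 1.77 and −1.25 with them. Calls made without them (80, 80, 79, 78 and 76 members) take the spread from the WT libraries alone. Those varied less: chi-square per degree of freedom between replicates was 469.9 and 168.9 in grr1-deficient cells at 4 h and 0 h, against 6.17 and 19.8 in WT cells. These figures include the mitochondrial reading frames, so the gap between the grr1-deficient replicates enters them, and they are no measure of the members' spread alone. Levels are CPM, the count of a gene over the TMM-scaled total of its library, so they are relative to the other transcripts of a library, and a lower level in bulk RNA does not tell fewer expressing cells from less RNA per cell.

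Large subunit genes took 2.72 and 2.77% of gene reads in grr1-deficient cells at 4 h and 7.91 and 7.79% at 0 h, against 1.08 and 1.06% in WT cells at 4 h and 14.04 and 13.2% at 0 h. In each strain both libraries at 4 h lay below both at 0 h, and the grr1-deficient strain covered the narrower span. Set over nuclear genes alone, the means were 2.97 ± 0.25% and 8.34 ± 0.74% in grr1-deficient cells at 4 h and 0 h, and 1.13 ± 0.01% and 13.9 ± 0.61% in WT cells (SD, n = 2). Small subunit genes kept a nearly constant proportion to them: 1.38 and 1.31 large subunit reads were counted for each small subunit read in grr1-deficient cells at 4 h and 1.36 and 1.37 at 0 h, against 1.48 and 1.46 in WT cells at 4 h and 1.32 and 1.32 at 0 h.

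**Figure D1:**
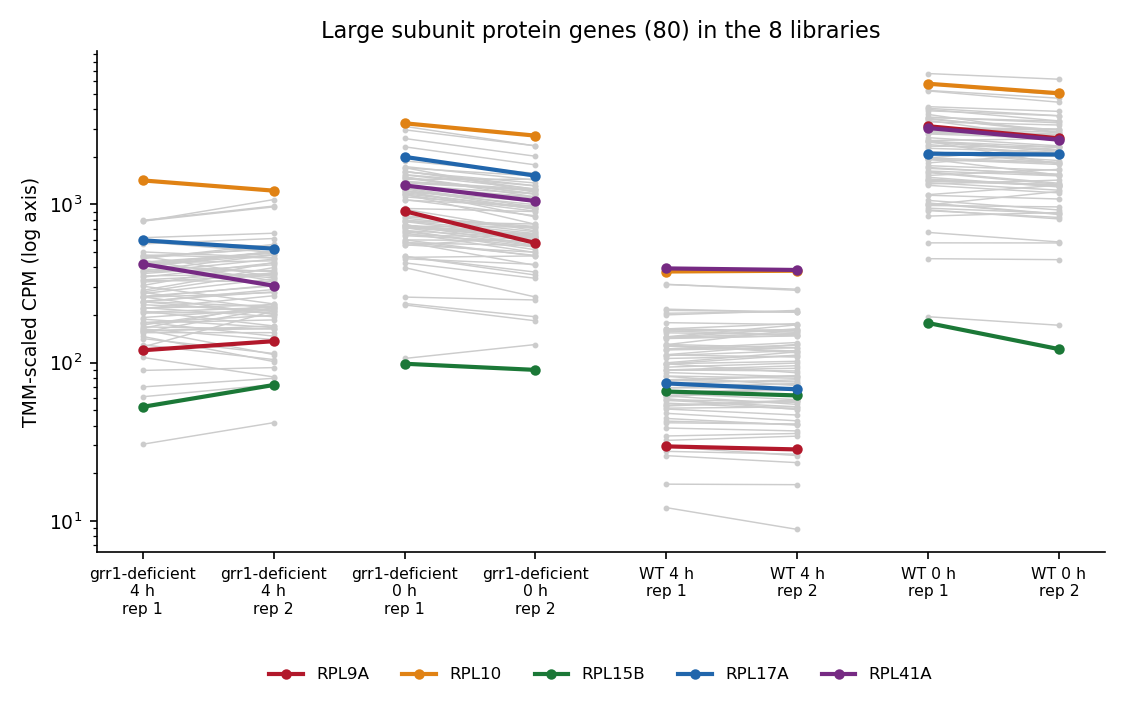
Each grey line joins the TMM-scaled CPM (log axis) of 1 of the 80 genes in replicates 1 and 2 of a group, and 5 genes are coloured. All 80 group means are highest in WT cells at 0 h and 78 are lowest in WT cells at 4 h, while those of RPL15B and RPL41A are lowest in grr1-deficient cells at 4 h. RPL9A (29.6 and 28.3 CPM) lies below RPL15B (65.7 and 62.1) and RPL41A (394 and 385) at 4 h in WT cells.

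Per kilobase of transcript, the members spanned a wide range within every library, by 18.5-fold to 54.7-fold between the lowest and the highest. In WT cells at 0 h the highest per-length levels were those of RPL41A (7439 and 6275 CPM per kb), RPL28 (7148 and 6421) and RPL10 (7071 and 6158). RPL41A (YDL184C, R64 chromosome IV, 130407 to 130484) encodes the smallest protein of the ribosome, Rpl28 is the protein whose mutation gives resistance to cycloheximide, and Rpl10 joins the subunit late and borders the tRNA sites. The lowest per-length levels there were those of RPL15B (199 and 136 CPM per kb), RPL22B (381 and 337) and RPL18B (572 and 564). RPL15B ranked lowest of the 80 in every group but WT cells at 4 h, where its 73.4 and 69.3 CPM per kb gave it rank 62 from the top, and RPL22B, at 23.7 and 17.2, was lowest. RPL41A ranked 1 in WT cells at both times and 4 in grr1-deficient cells at both times, where RPL10 was highest with 1731 and 1492 CPM per kb at 4 h and 3977 and 3322 at 0 h. By medians, genes without a partner stood between paired genes and whole pairs: the median per-length level in grr1-deficient libraries at 4 h was 595 and 632 CPM per kb for the 10 single genes, against 359 and 391 for the 70 paired genes and 779 and 858 for the 35 pair sums. In WT libraries at 0 h the same medians were 4382 and 3917, 2897 and 2746, and 5839 and 5370 CPM per kb. Not every single gene lay between. In grr1-deficient cells at 4 h RPL30 (175 and 141 CPM per kb) lay below the paired median and RPL10 above that of the pair sums.

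In grr1-deficient cells all 80 genes were lower at 4 h than at 0 h by edgeR's quasi-likelihood test at an adjusted p under 0.05, where 24.5% of the 5855 genes tested were called lower. The median log2 change was −1.60 (all genes 0.04) and the members ranged from −2.53 to −0.59. In WT cells all 80 were lower at 4 h as well, where 33.1% of all genes were called lower, with a median of −4.59 (all genes 0.03) and a range from −6.63 to −1.23. The values at 4 h lay below those at 0 h without overlap for 80 of 80 members in both strains, as they did for 34.1% of all genes in grr1-deficient cells and 43.4% in WT cells. The fall was smaller in grr1-deficient cells for every member, at a median of 0.35 of the log2 change in WT cells (0.23 to 0.60). The 10 single genes and the 70 paired ones had close medians, −1.57 and −1.60 in grr1-deficient cells and −4.61 and −4.59 in WT cells, and the spread was narrower among the single genes (SD 0.17 and 0.25 log2 in grr1-deficient cells, 0.36 and 0.73 in WT cells). Across the 80 genes the changes in the strains had a Pearson r of 0.65 and a Spearman rho of 0.49, given as a description over genes, which share libraries, scaling and depth and are not independent replicates. In the authors' deposited tables the members' median log2 change was −1.60 in grr1-deficient cells and −4.60 in WT cells. RPL15B was not called there in grr1-deficient cells.

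**Figure D2:**
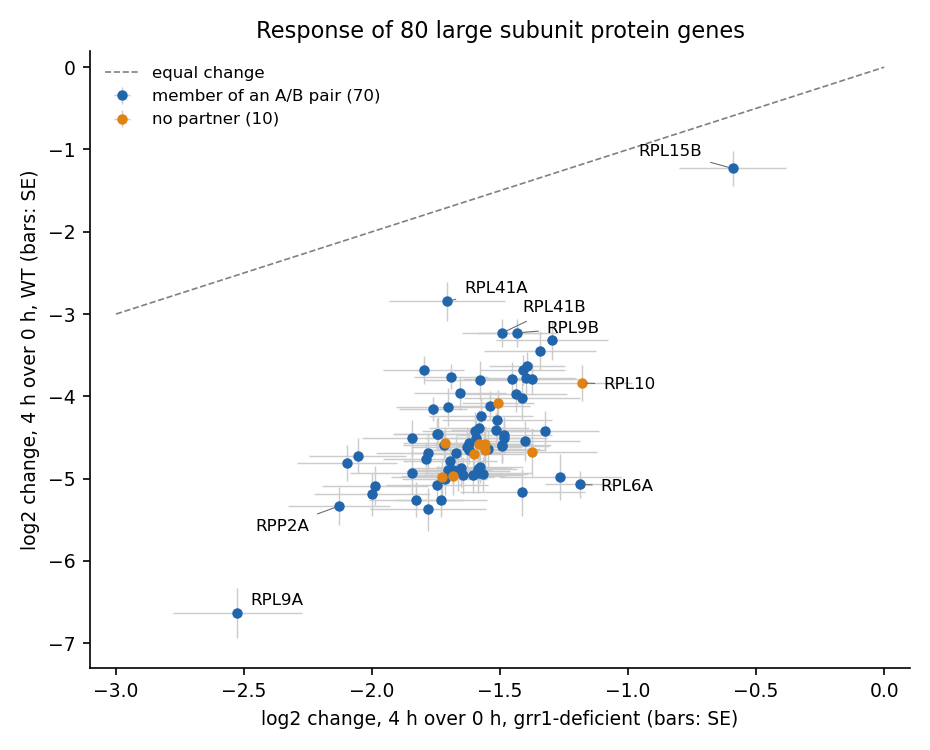
Each point is a gene, with its log2 change at 4 h over 0 h in grr1-deficient cells on the x axis and in WT cells on the y axis, and bars give SE from edgeR. All 80 lie below the dashed line of equal change, RPL9A is lowest on both axes (−2.53 and −6.63) and RPL15B highest on both (−0.59 and −1.23).

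The genes without a partner covered several sites of the subunit. RPL3, for a protein that reaches toward the catalytic centre, had 782 and 1074 CPM in grr1-deficient cells at 4 h and 3119 and 2344 at 0 h. In WT cells RPL3 had 218 and 208 CPM at 4 h and 5741 and 4939 at 0 h. Both strains had less RPL3 transcript at 4 h, WT cells by the wider margin. RPL10 had 1419 and 1223 CPM in grr1-deficient cells at 4 h and 3261 and 2724 at 0 h. In WT cells RPL10 had 377 and 381 CPM at 4 h and 5798 and 5049 at 0 h. Its WT libraries lay below both grr1-deficient ones at 4 h and above both at 0 h. RPL28 had 564 and 609 CPM in grr1-deficient cells at 4 h and 1887 and 1573 at 0 h. In WT cells RPL28 had 164 and 158 CPM at 4 h and 4053 and 3641 at 0 h. In all 3 genes the 4 groups were separate and kept the order WT 4 h, grr1-deficient 4 h, grr1-deficient 0 h, WT 0 h from low to high. Of the 80 members 78 had this order of group means, and its share over all genes was not counted. RPL10 fell least of the 10 in both strains, at −1.18 ± 0.20 log2 in grr1-deficient cells (edgeR adjusted p = 0.00159) and −3.84 ± 0.22 in WT cells (edgeR adjusted p = 1.5e-06). RPL5, whose product carries 5S RNA into the subunit, had 617 and 658 CPM in grr1-deficient cells at 4 h and 2315 and 1779 at 0 h. In WT cells RPL5 had 162 and 156 CPM at 4 h and 5260 and 4699 at 0 h. Its fall was the second deepest of the 10 in WT cells, −4.97 ± 0.23 log2 (edgeR adjusted p = 7.5e-07), against −1.68 ± 0.20 in grr1-deficient cells (edgeR adjusted p = 0.000378).

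RPL25 and RPL39 encode proteins at the mouth and in the wall of the exit tunnel. RPL25 had 501 and 462 CPM in grr1-deficient cells at 4 h and 1442 and 1444 at 0 h. In WT cells RPL25 had 142 and 148 CPM at 4 h and 3547 and 3360 at 0 h. Replicates of RPL25 lay close together in every group. RPL39 had 158 and 171 CPM in grr1-deficient cells at 4 h and 463 and 473 at 0 h. In WT cells RPL39 had 53.7 and 58.0 CPM at 4 h and 1022 and 870.4 at 0 h. RPL39 changed less than RPL25 in WT cells, at −4.08 ± 0.16 against −4.57 ± 0.20 log2, with no test of that difference. RPL30, whose protein binds its own transcript and represses its splicing, had 129.7 and 105 CPM in grr1-deficient cells at 4 h and 428 and 342 at 0 h. In WT cells RPL30 had 41.7 and 40.9 CPM at 4 h and 986 and 965 at 0 h. Replicates of RPL30 differed by less than the groups did. RPL32 had 379.9 and 482 CPM in grr1-deficient cells at 4 h and 1394 and 1219 at 0 h. In WT cells RPL32 had 111 and 119 CPM at 4 h and 2998 and 2971 at 0 h. RPL32 kept the same order of groups. RPL38 had 413 and 375 CPM in grr1-deficient cells at 4 h and 1489 and 1116 at 0 h. In WT cells RPL38 had 89.5 and 92.2 CPM at 4 h and 2963 and 2782 at 0 h. RPL38, at −4.98 ± 0.23 log2, fell deepest of the 10 in WT cells, and over the 10 genes the range was −1.72 to −1.18 in grr1-deficient cells and −4.98 to −3.84 in WT cells.

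The stalk is the flexible arm on which elongation factors land: P0 anchors it on ribosomal RNA, and P1 and P2 bind P0 as dimers. RPP0 (YLR340W, chromosome XII, 805887 to 806825) had 392 and 344 CPM in grr1-deficient cells at 4 h and 1162 and 749.5 at 0 h. In WT cells RPP0 had 86.6 and 81.4 CPM at 4 h and 2509 and 1803 at 0 h. Replicates at 0 h lay further apart for RPP0 than for the other single genes, without overlap between groups. RPP1A had 334 and 367 CPM in grr1-deficient cells at 4 h and 1074 and 848 at 0 h. In WT cells RPP1A had 164 and 177 CPM at 4 h and 2509 and 2209 at 0 h. At 4 h the strains were closer for RPP1A than for RPP0. RPP1B had 193 and 219 CPM in grr1-deficient cells at 4 h and 734 and 649.6 at 0 h. In WT cells RPP1B had 63.8 and 69.99 CPM at 4 h and 1591 and 1341 at 0 h. The groups did not overlap for any of the 3. RPP2A had 108 and 81.2 CPM in grr1-deficient cells at 4 h and 469.8 and 358 at 0 h. In WT cells RPP2A had 25.8 and 23.3 CPM at 4 h and 1061 and 923 at 0 h. RPP2A was likewise lowest in WT cells at 4 h. RPP2B had 331 and 324 CPM in grr1-deficient cells at 4 h and 1119 and 949 at 0 h. In WT cells RPP2B had 145 and 164 CPM at 4 h and 2507 and 2310 at 0 h. RPP2A had the second deepest fall of all members in grr1-deficient cells, −2.13 ± 0.20 log2 (edgeR adjusted p = 0.000159), and one of the 3 deepest in WT cells, −5.33 ± 0.23 (edgeR adjusted p = 7.0e-07). The other 4 stalk genes ranged from −1.75 to −1.38 in grr1-deficient cells and from −4.68 to −3.79 in WT cells. Between 59.9% and 68.6% of RPP2B reads and between 39.4% and 46.8% of RPP1A reads lay in the annotated 5′ UTR, where 2.97% to 6.89% of the reads of all members did, so levels of these genes rest to a large part on sequence before the start codon.

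RPL9A and RPL15B marked the ends of the range in both strains. RPL9A (YGL147C, chromosome VII, 227754 to 228329), for a protein of the factor-binding side, had 119.8 and 137 CPM in grr1-deficient cells at 4 h and 907 and 571 at 0 h. In WT cells RPL9A had 29.6 and 28.3 CPM at 4 h and 3124 and 2621 at 0 h. It changed by −2.53 ± 0.25 log2 in grr1-deficient cells (edgeR adjusted p = 0.000187) and by −6.63 ± 0.30 in WT cells (edgeR adjusted p = 7.3e-07). RPL15B (YMR121C, chromosome XIII, 509734 to 510348), the dispensable copy of a pair whose A copy is essential, had 52.6 and 72.2 CPM in grr1-deficient cells at 4 h and 98.4 and 90.0 at 0 h. In WT cells RPL15B had 65.7 and 62.1 CPM at 4 h and 178 and 122 at 0 h. In WT cells its −1.23 ± 0.21 log2 passed the test (edgeR adjusted p = 0.000906), but not with total counts in place of TMM (−0.48, edgeR adjusted p = 0.0553). In grr1-deficient cells its −0.59 ± 0.21 log2 passed narrowly (edgeR adjusted p = 0.0467), and the call was lost without either 0 h library of that strain, without replicate 1 at 4 h and without either WT library at 4 h, over which the change lay between −0.66 and −0.39 and the edgeR adjusted p between 0.0766 and 0.191.

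Other members stood at an end of the range in 1 strain. RPL12A, whose product sits at the base of the stalk, had 279.9 and 370.5 CPM in grr1-deficient cells at 4 h and 1275 and 961 at 0 h. In WT cells RPL12A had 60.5 and 69.8 CPM at 4 h and 2793 and 2611 at 0 h. In each strain RPL12A at 4 h lay far below its 0 h values. RPL14A had 278 and 218 CPM in grr1-deficient cells at 4 h and 1189 and 936 at 0 h. In WT cells RPL14A had 50.9 and 46.7 CPM at 4 h and 1423 and 1311 at 0 h. At 0 h the RPL14A levels of the strains lay close together. RPL6A had 89.3 and 93.0 CPM in grr1-deficient cells at 4 h and 232 and 184 at 0 h. In WT cells RPL6A had 17.1 and 16.9 CPM at 4 h and 572 and 571 at 0 h. RPL12A fell second deepest in WT cells (−5.37 ± 0.26 log2, edgeR adjusted p = 8.6e-07), RPL14A was among the 3 deepest in grr1-deficient cells (−2.10 ± 0.20, edgeR adjusted p = 0.000159), and RPL6A among the 3 least in grr1-deficient cells (−1.19 ± 0.14, edgeR adjusted p = 0.000326). RPL41A had 420.5 and 307 CPM in grr1-deficient cells at 4 h and 1320 and 1052 at 0 h. In WT cells RPL41A had 394 and 385 CPM at 4 h and 3043 and 2566 at 0 h. The RPL41A values of the strains overlapped at 4 h and not at 0 h. RPL41B had 223 and 195 CPM in grr1-deficient cells at 4 h and 552 and 626 at 0 h. In WT cells RPL41B had 98.4 and 86.3 CPM at 4 h and 925 and 810.2 at 0 h. After RPL15B these were the members that fell least in WT cells together with RPL9B, at −2.85 ± 0.24 log2 for RPL41A, −3.23 ± 0.17 for RPL41B and −3.23 ± 0.17 for RPL9B. RPL41A and RPL41B are 98.7% identical over the coding region and 69.0% of their 50-base windows are shared, so reads could be assigned to the wrong copy. The treatment of reads with several places in the genome was not stated.

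The interaction asked whether the strains responded differently to the same 4 h. For 79 of the 80 genes the change was higher, that is the fall smaller, in grr1-deficient cells, where 19.9% of all genes were called higher. The median interaction was 2.99 log2 (all genes 0.03). It was largest for RPL9A (4.11 ± 0.35 log2, edgeR adjusted p = 0.000138), RPL6A (3.88 ± 0.20, edgeR adjusted p = 3.5e-05) and RPL8B (3.76 ± 0.35, edgeR adjusted p = 0.000171). RPL8B had 444 and 329 CPM in grr1-deficient cells at 4 h and 1223 and 834 at 0 h. In WT cells RPL8B had 82.0 and 71.6 CPM at 4 h and 2876 and 2646 at 0 h. The smallest were those of RPL15B (0.64 ± 0.29 log2, edgeR adjusted p = 0.122, not called), RPL41A (1.14 ± 0.31, edgeR adjusted p = 0.0216) and RPL41B (1.74 ± 0.22, edgeR adjusted p = 0.000665). With total counts in place of TMM the RPL15B interaction turned to −0.056 log2, and without replicate 1 of the grr1-deficient strain at 4 h it was called (0.85, edgeR adjusted p = 0.0439). The RPL41A call was lost when any 1 of the 4 WT libraries was left out, at 1.02 to 1.28 log2 with edgeR adjusted p between 0.0529 and 0.0934, and with total counts (0.46, edgeR adjusted p = 0.194).

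After 4 h of tunicamycin 78 of the 80 genes were higher in grr1-deficient than in WT cells, where 17.2% of all genes were called higher, with a median of 1.77 log2 (all genes −0.0025). RPL17A, for a protein at the narrowest stretch of the exit tunnel, had 593 and 525 CPM in grr1-deficient cells at 4 h and 1999 and 1522 at 0 h, against 73.9 and 67.8 CPM in WT cells at 4 h and 2094 and 2070 at 0 h. It had the largest difference at 4 h (2.98 ± 0.21 log2, edgeR adjusted p = 0.000135), followed by RPL6A (2.42 ± 0.15) and RPL14A (2.35 ± 0.20). The 2 genes not called were RPL41A (−0.10 ± 0.22 log2, edgeR adjusted p = 0.753) and RPL15B (−0.03 ± 0.21, edgeR adjusted p = 0.922), whose group means were lower in grr1-deficient cells. The sign was positive for RPL41A without replicate 2 of the grr1-deficient strain at 4 h (0.11) and for RPL15B without replicate 1 there (0.17). The smallest difference called was that of RPL1A, in the mobile stalk beside the exit site of tRNA, at 0.75 ± 0.21 log2 (edgeR adjusted p = 0.0308). RPL1A and RPL1B share 81.0% of their 50-base windows, so reads could be assigned to the wrong copy. At 4 h RPL1A held 39.3 and 40.2% of the pair's reads in grr1-deficient cells and 47.0 and 48.1% in WT cells. In UTR reads it held 2.31 and 2.38%, and 5.80 and 4.83%. The part of wrong assignment in this was not tested. RPL1A had 304 and 235 CPM in grr1-deficient cells at 4 h and 933 and 681 at 0 h. In WT cells RPL1A had 158 and 162 CPM at 4 h and 2391 and 2088 at 0 h. Its call was lost without replicate 1 of the grr1-deficient strain at 4 h and without any 1 of the WT libraries, at 0.55 to 0.76 log2 with edgeR adjusted p between 0.0589 and 0.171, and with total counts (0.48, edgeR adjusted p = 0.0659).

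Before the drug 76 of the 80 genes were lower in grr1-deficient than in WT cells, where 27.2% of all genes were called lower, with a median of −1.25 log2 (all genes −0.06). All 80 had both grr1-deficient values below both WT values at 0 h, as 42.9% of all genes did. RPL9A led (−1.96 ± 0.25 log2, edgeR adjusted p = 0.000475), followed by RPL23A (−1.67 ± 0.20), for a protein of the interface with the small subunit, and RPL13A (−1.56 ± 0.17). RPL23A had 155 and 221 CPM in grr1-deficient cells at 4 h and 683 and 613 at 0 h. In WT cells RPL23A had 76.8 and 82.4 CPM at 4 h and 2104 and 2012 at 0 h. RPL23A followed the common order of groups. RPL13A had 155 and 155 CPM in grr1-deficient cells at 4 h and 598 and 472 at 0 h. In WT cells RPL13A had 61.6 and 54.5 CPM at 4 h and 1628 and 1516 at 0 h. The 4 genes not called were RPL17A (−0.24 ± 0.19, edgeR adjusted p = 0.325), RPL9B (−0.29 ± 0.15, edgeR adjusted p = 0.147), RPL40B (−0.34 ± 0.18, edgeR adjusted p = 0.157) and RPL14A (−0.36 ± 0.19, edgeR adjusted p = 0.141), and with total counts in place of TMM these 4 had positive values between 0.034 and 0.15. RPL14A was called without replicate 1 of the grr1-deficient strain at 0 h (−0.57, edgeR adjusted p = 0.0432). RPL40B, for a fusion of ubiquitin with a ribosomal protein, had 378 and 383 CPM in grr1-deficient cells at 4 h and 1738 and 1426 at 0 h. In WT cells RPL40B had 73.8 and 77.9 CPM at 4 h and 2170 and 1829 at 0 h. Calls for RPL10, RPL3, RPL41B, RPL22B and RPL15B at 0 h were each lost without replicate 1 of WT cells at 0 h, at −0.76, −0.86, −0.47, −0.56 and −0.38 log2 with edgeR adjusted p between 0.0767 and 0.201. With total counts 4 of these were lost as well, at −0.46 for RPL10, −0.14 for RPL41B, −0.21 for RPL22B and −0.26 for RPL15B (edgeR adjusted p between 0.0533 and 0.563). RPL22B also lost its call without replicate 1 of the grr1-deficient strain at 0 h (−0.52, edgeR adjusted p = 0.102) or replicate 2 of WT cells at 0 h (−0.76, edgeR adjusted p = 0.0564), and RPL15B without replicate 1 (−0.76, edgeR adjusted p = 0.0621) or replicate 2 (−0.61, edgeR adjusted p = 0.116) of the grr1-deficient strain at 0 h.

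Scaling moved all genes together. Total counts in place of TMM placed the median of all genes at 0.10 log2 for 4 h over 0 h in grr1-deficient cells, 0.78 in WT cells, −0.65 for the interaction, −0.28 for grr1-deficient over WT cells at 4 h and 0.34 at 0 h. Relative to those medians the members stood at −1.63, −4.62, 2.96, 1.77 and −1.19 log2, against −1.63, −4.62, 2.96, 1.77 and −1.18 with TMM. As scaling shifts all genes of a comparison nearly alike, these near-equal values follow from the method and are no test of the result.

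Genes that serve the large subunit were set beside its proteins, from lists chosen with earlier results of these data known. The 55 small subunit genes were all lower at 4 h in both strains, with medians of −1.60 log2 in grr1-deficient cells and −4.61 in WT cells, and their median interaction was 3.04. Of 34 genes for assembly, placeholder and export factors, 28 were lower in grr1-deficient cells (median −0.93) and 34 in WT cells (median −2.28), where 24.5% and 33.1% of all genes were called lower. Among 13 chaperones and escorts of newly made large subunit proteins, 12 were lower in each strain against the same shares of all genes, with medians of −1.01 and −2.19, and BTT1, an alternative subunit of the nascent chain complex, was the one not called. SSB1, for the Hsp70 that binds chains as they leave the ribosome, changed most of them in both strains. SSB1 had 1289 and 1491 CPM in grr1-deficient cells at 4 h and 4449 and 3454 at 0 h. In WT cells SSB1 had 568 and 562 CPM at 4 h and 8779 and 8336 at 0 h. SSB1 kept the order of groups seen for the ribosomal protein genes. RRB1, the chaperone of Rpl3, had 73.0 and 80.5 CPM in grr1-deficient cells at 4 h and 208 and 195 at 0 h. In WT cells RRB1 had 61.7 and 52.4 CPM at 4 h and 529 and 504 at 0 h. RRB1 kept that order too. SYO1, which imports Rpl5 with Rpl11, had 37.1 and 45.1 CPM in grr1-deficient cells at 4 h and 102 and 98.6 at 0 h. In WT cells SYO1 had 22.9 and 23.1 CPM at 4 h and 217 and 190.0 at 0 h. All 3 were lower at 4 h and by more in WT cells. The log2 change in grr1-deficient and in WT cells was −1.51 and −3.92 for SSB1, −1.39 and −3.18 for RRB1 and −1.29 and −3.14 for SYO1. Other chaperones did not all keep the order of groups. At 4 h ACL4 (−0.33 log2), ZUO1 (−0.24), SSZ1 (−0.21) and BCP1 (−0.16) were below WT cells in grr1-deficient cells, none of them called. There 5 of the 13 chaperones and 14 of the 34 assembly genes were called higher in grr1-deficient cells, against 17.2% of all genes. The mitochondrial large subunit, encoded by MRPL nuclear genes, also had lower medians at 4 h, but with the deeper one in grr1-deficient cells. Of 32 tested genes, 32 were called lower in grr1-deficient cells (median −1.80) and 21 in WT cells (−0.60). The shares of all genes were 24.5% and 33.1%. The interaction was called lower for 28 (−1.15), as for 17.4% of all genes. At 0 h 30 were higher in grr1-deficient than in WT cells (1.34), as 22.5% of all genes were, where 76 of the 80 cytosolic genes were lower.

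Of 15 regulators of ribosomal protein genes, 4 were higher and 3 lower at 4 h in grr1-deficient cells, and 1 was higher and 7 lower in WT cells. Of all genes, 21.5% were called higher and 24.5% lower in grr1-deficient cells, and 32.5% higher and 33.1% lower in WT cells. The regulator counts in grr1-deficient cells were near those shares. The interaction was called higher for 8 of the 15 and lower for 0, where 19.9% of all genes were called higher. Beside DOT6 and GCN4, given below, these were TOD6 (1.14 log2), ABF1 (0.77), RAP1 (0.76), TOR2 (0.69), SCH9 (0.68) and IFH1 (0.63). RAP1 had 81.7 and 73.3 CPM in grr1-deficient cells at 4 h and 119 and 93.4 at 0 h. In WT cells RAP1 had 66.1 and 64.05 CPM at 4 h and 153 and 149.6 at 0 h. Its change was −0.46 log2 in grr1-deficient cells (edgeR adjusted p = 0.0275) and −1.22 in WT cells (edgeR adjusted p = 8.7e-05). HMO1, for a high mobility group protein at many of these promoters, was lower in both strains (−0.82 in grr1-deficient and −1.62 in WT cells), as was FHL1 (−0.45 and −0.60). IFH1 and SFP1 were not called in either strain, at 0.33 and −0.30 log2 for IFH1 and 0.22 and −0.33 for SFP1. STB3, for a repressor of growth genes that leaves the nucleus in glucose, had 88.2 and 69.0 CPM in grr1-deficient cells at 4 h and 40.5 and 35.5 at 0 h. In WT cells STB3 had 114 and 112 CPM at 4 h and 34.4 and 41.5 at 0 h. It was higher by 1.04 log2 in grr1-deficient cells (edgeR adjusted p = 0.0011) and by 1.57 in WT cells (edgeR adjusted p = 4.2e-05). DOT6, for another repressor of ribosome synthesis genes, was higher in grr1-deficient cells by 1.26 log2 (edgeR adjusted p = 0.0036) and not called in WT cells (0.14), with a called interaction of 1.12 (edgeR adjusted p = 0.0298). Its relative TOD6 was lower in WT cells (−1.57) and not called in grr1-deficient cells (−0.44). GCN4, the activator of amino acid synthesis, had 1085 and 1064 CPM in grr1-deficient cells at 4 h and 1297 and 766 at 0 h. In WT cells GCN4 had 284 and 312 CPM at 4 h and 802 and 805 at 0 h. Its change was −1.43 log2 in WT cells and 0.060 in grr1-deficient cells, with an interaction of 1.49 (edgeR adjusted p = 0.00999). The TOR kinase gene TOR2 was higher in grr1-deficient than in WT cells at both 4 h (1.60) and 0 h (0.91). ABF1 (−0.91) and SCH9, a kinase below TOR (−0.43), were lower in WT cells, both without a call in grr1-deficient cells (−0.14 and 0.26). KOG1, the partner of Tor1, was higher by 0.47 in grr1-deficient cells and stood at 0.13 in WT cells, TOR1 at 0.40 and −0.08, and the corepressor gene CRF1 at −0.45 and 0.55, without calls for TOR1 and CRF1 in either strain.

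**Figure D3:**
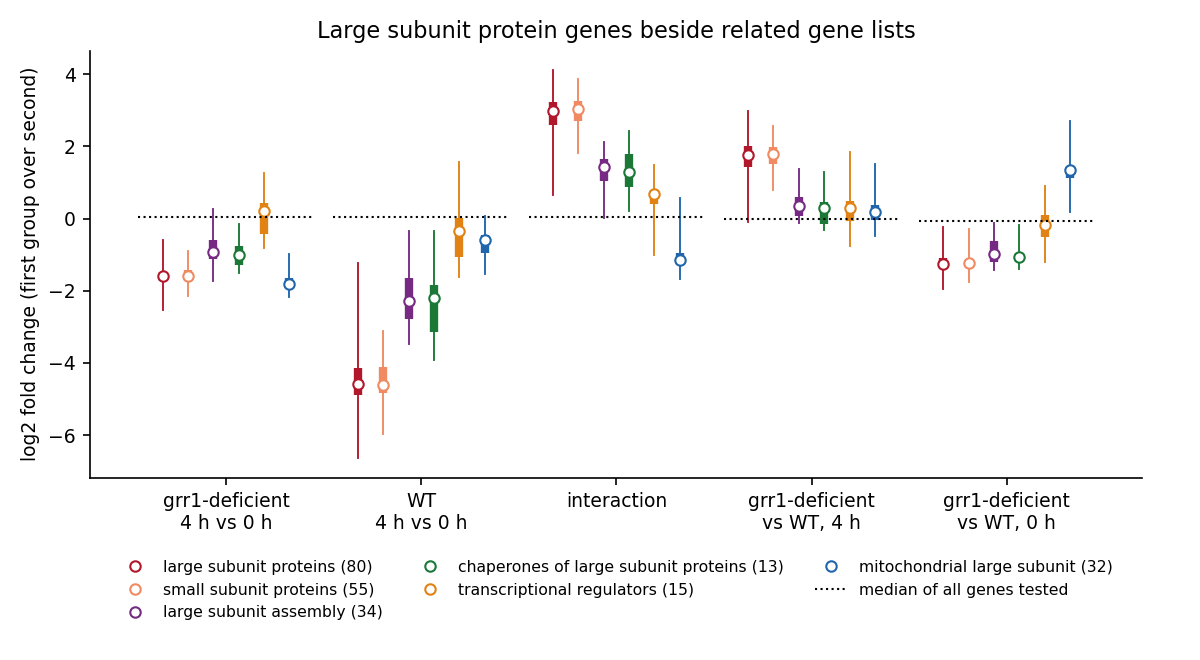
Open circles give the median log2 fold change of each list, thick bars the middle 50% and thin lines the range, for each of the 5 comparisons. The large and small subunit lists overlap in all 5 (medians −1.60 and −1.60, −4.59 and −4.61, 2.99 and 3.04 in the first 3), and the mitochondrial list stands on the other side of 0 for the interaction (−1.15) and at 0 h (1.34).

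The paralogs of a pair are close in sequence: coding regions were 93.2% identical in the median pair, from 68.2% for RPP1A and RPP1B to 99.4% for RPL1A and RPL1B, and 11 of 35 pairs were above 95%. A median of 10.5% of the 50-base windows of a gene also occurred in its partner. The ratio of A to B reads within a library needs no scaling between libraries. It was tested with limma over 59 A and B pairs of the genome, of which 35 are members and most others small subunit pairs. The pairs whose ratio moved most, RPL9 and RPL15, can be told apart in parts of their coding regions. The stretches below, from the R64 reference (RefSeq), are examples, with positions counted from the start codon and capitals where the partner has another base.
RPL9A, positions 544 to 573, chrVII:227757-227786, minus strand: tcTcacaagggtttTattACTgaagaTTtA
RPL9B, positions 544 to 573, chrXIV:500224-500253, plus strand: tcCcacaagggtttCattGTCgaagaCAtG
RPL15A, positions 439 to 468, chrXII:202123-202152, minus strand: cgTtacaactggatctgTGaCccAgtTcaC
RPL15B, positions 439 to 468, chrXIII:509881-509910, minus strand: cgGtacaactggatctgCAaTccCgtCcaT
The 30 bases hold 8 differences in RPL9 and 7 in RPL15. Over the whole coding region the pairs were 93.8% and 93.2% identical.

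RPL9A gave way to RPL9B at 4 h. The A copy held 31.6 and 30.7% of the pair's reads in grr1-deficient cells at 4 h and 53.7 and 43.1% at 0 h, against 23.1 and 21.7% in WT cells at 4 h and 75.5 and 75.2% at 0 h. So RPL9A was the major copy in both WT libraries at 0 h and the minor one in all 4 libraries at 4 h, and the grr1-deficient libraries at 0 h lay between. RPL9B itself had 259 and 309 CPM in grr1-deficient cells at 4 h and 781 and 752 at 0 h. In WT cells RPL9B had 98.4 and 102 CPM at 4 h and 1013 and 865 at 0 h. The log2 ratio of A to B changed by −1.05 ± 0.19 in grr1-deficient cells (limma adjusted p = 0.0124) and by −3.403 ± 0.19 in WT cells (limma adjusted p = 1.5e-05). The difference of those changes was 2.35 ± 0.27 (limma adjusted p = 0.00127), and at 0 h the ratio in grr1-deficient over WT cells was −1.70 ± 0.19 (limma adjusted p = 0.00118). UTR reads alone, of which RPL9A had 2 and 3 at 4 h in WT cells against 103 and 90 at 0 h, gave −2.91 log2 in WT cells (limma adjusted p = 3.9e-06) and were not called in grr1-deficient cells (−1.13, limma adjusted p = 0.0848).

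For RPL15 the A copy dominated everywhere, and least in WT cells at 4 h. RPL15A (YLR029C, chromosome XII, 201976 to 202590) had 785 and 966 CPM in grr1-deficient cells at 4 h and 2613 and 2018 at 0 h. In WT cells RPL15A had 200.4 and 214 CPM at 4 h and 5222 and 4432 at 0 h. It held 93.7 and 93.0% of the pair's reads in grr1-deficient cells at 4 h and 96.4 and 95.7% at 0 h, against 75.3 and 77.5% in WT cells at 4 h and 96.7 and 97.3% at 0 h. All other libraries stood above the WT libraries at 4 h. The log2 ratio changed by −0.79 ± 0.13 in grr1-deficient cells (limma adjusted p = 0.0124) and by −3.33 ± 0.13 in WT cells (limma adjusted p = 3.9e-06), with an interaction of 2.54 ± 0.19 (limma adjusted p = 0.000228). UTR reads gave −2.85 log2 in WT cells (limma adjusted p = 1.3e-05) and an interaction of 2.15 (limma adjusted p = 0.0169), without a call in grr1-deficient cells (−0.71, limma adjusted p = 0.52).

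**Figure D4:**
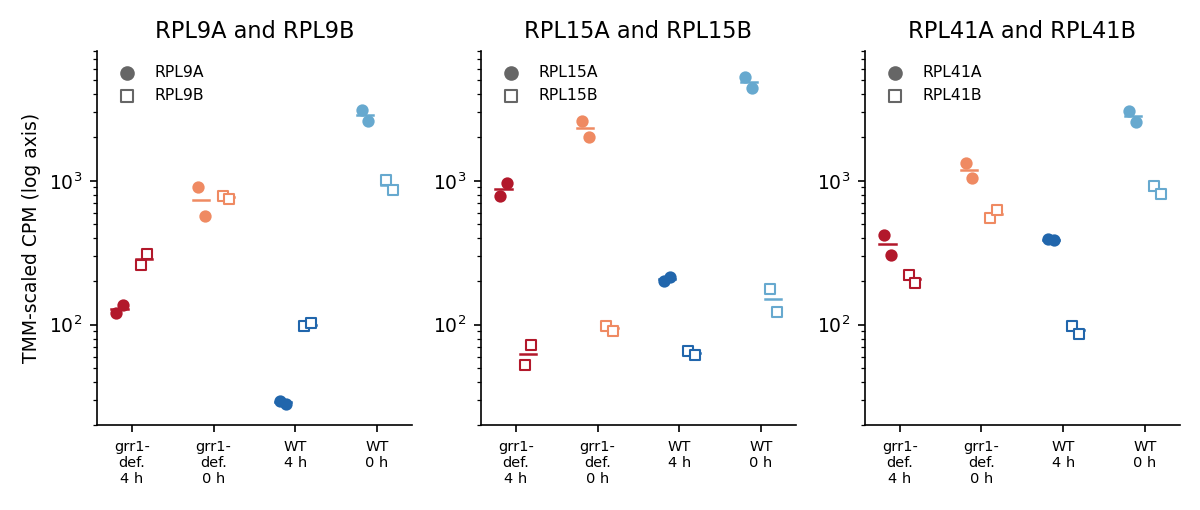
TMM-scaled CPM (log axis) of the A copy (filled circles) and B copy (open squares) of 3 pairs in the 2 libraries of each group, with short lines at the means. RPL9A is above RPL9B in WT cells at 0 h and below it in both strains at 4 h, RPL15A stays above RPL15B throughout, and RPL41A in WT cells at 4 h (394 and 385 CPM) overlaps its values in grr1-deficient cells at 4 h (420.5 and 307 CPM).

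Among the 35 member pairs, the A to B ratio changed with tunicamycin in 5 in grr1-deficient cells and in 18 in WT cells, 12 of these toward B. These are 14.3% and 51.4% of the member pairs, against 16.9% and 59.3% of all 59 pairs. Of the 24 other pairs 20.8% and 70.8% were called, so the member pairs were near or below these shares. Most of the other pairs encode small subunit proteins. Before the filter there were 61 pairs, 23 of them of the small subunit and 3 outside both subunits. The comparison is thus mainly with the small subunit and gives no background for paralogs in general. The interaction was called for 10 member pairs (32.2% of all pairs and 37.5% of the others). The difference between the strains at 0 h was called for 7 (18.6% of all pairs and 16.7% of the others). The median size of the change was 0.20 log2 in grr1-deficient cells and 0.32 in WT cells. The count of 5 in grr1-deficient cells was 3 without replicate 1 and 3 without replicate 2 of that strain at 0 h, the count of 10 for the interaction was 6 without replicate 2 of WT cells at 0 h, and the count of 7 at 0 h was 11 without replicate 1 of the grr1-deficient strain at 4 h, 4 without its replicate 2 at 0 h and 3 without replicate 2 of WT cells at 0 h. Without both grr1-deficient replicate 2 libraries the 4 counts were 4, 23, 11 and 7, with the spread from WT cells alone.

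For RPL24, which forms a bridge to the small subunit, the A share was 55.5 and 56.4% in grr1-deficient cells at 4 h and 59.3 and 59.0% at 0 h, against 40.7 and 39.8% in WT cells at 4 h and 60.2 and 59.3% at 0 h. Its interaction was 0.95 ± 0.11 log2 (limma adjusted p = 0.00127). RPL26, at the tunnel exit, shifted toward A instead, with 49.9 and 42.1% in grr1-deficient cells at 4 h and 43.7 and 41.4% at 0 h, against 52.9 and 52.9% in WT cells at 4 h and 33.5 and 33.6% at 0 h. Its ratio rose by 1.15 ± 0.15 log2 in WT cells (limma adjusted p = 0.000701), and its interaction of −0.95 ± 0.22 (limma adjusted p = 0.0168) was not called when any 1 WT library was left out (limma adjusted p between 0.0583 and 0.0616) or in UTR reads (−0.94, limma adjusted p = 0.136).

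In the stalk the A share of RPP2 was 24.6 and 20.0% in grr1-deficient cells at 4 h and 29.6 and 27.4% at 0 h, against 15.1 and 12.5% in WT cells at 4 h and 29.7 and 28.6% at 0 h. The ratio fell in WT cells (−1.36 ± 0.17 log2, limma adjusted p = 0.00053). It was not called in grr1-deficient cells (−0.48 ± 0.17, limma adjusted p = 0.115), though it was with a replicate block (−0.48, limma adjusted p = 0.0339). UTR reads turned its sign in WT cells (1.08, limma adjusted p = 0.00777), so its direction depends on the region counted. In grr1-deficient cells it was called without replicate 1 at 4 h (−0.67, limma adjusted p = 0.0357). The RPP2 interaction of 0.89 ± 0.24 log2 (limma adjusted p = 0.0318) was lost without replicate 2 of the grr1-deficient strain at 0 h, without replicate 2 of WT cells at 4 h and without either WT library at 0 h, at 0.72 to 0.93 with limma adjusted p between 0.0634 and 0.112. RPL8 and RPL20 had the largest sizes after RPL9 and RPL15 in grr1-deficient cells, −0.49 ± 0.36 and −0.48 ± 0.20 log2, and neither was called (limma adjusted p = 0.405 and 0.151). The A share of RPL8 was 22.1 and 39.2% in grr1-deficient cells at 4 h and 34.2 and 41.0% at 0 h, and the 4 h libraries lay on both sides of replicate 1 at 0 h. For RPL20 it was 28.4 and 20.8% at 4 h and 32.6 and 29.6% at 0 h. Without replicate 2 of the grr1-deficient strain at 4 h the RPL8 ratio was called (−1.08, limma adjusted p = 0.0169), and without replicate 1 there the RPL20 ratio was (−0.78, limma adjusted p = 0.0134).

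Some pairs differed between the strains more than between the times, and RPL17 and RPL40 were singled out here after their values were seen. RPL17A held 72.9 and 69.3% of its pair in grr1-deficient cells at 4 h and 73.5 and 70.3% at 0 h, against 56.2 and 56.3% in WT cells at 4 h and 55.3 and 57.1% at 0 h. At 0 h the difference was 1.00 ± 0.12 log2 (limma adjusted p = 0.00131), while the change with tunicamycin was −0.06 ± 0.12 in grr1-deficient cells and 0.0013 ± 0.12 in WT cells. RPL40A held 55.5 and 57.8% in grr1-deficient cells at 4 h and 48.1 and 49.0% at 0 h, against 67.7 and 65.9% in WT cells at 4 h and 61.8 and 61.1% at 0 h. Its ratio at 0 h differed by −0.76 ± 0.06 log2 in grr1-deficient cells (limma adjusted p = 0.000434) and rose with tunicamycin in both strains, by 0.47 ± 0.06 in grr1-deficient cells (limma adjusted p = 0.00467) and by 0.33 ± 0.06 in WT cells (limma adjusted p = 0.00305). In UTR reads the 0 h difference was not called for RPL17 (0.83, limma adjusted p = 0.0975) or RPL40 (−0.315, limma adjusted p = 0.663). The RPL40 rise was called there in WT cells (1.46, limma adjusted p = 0.00275) and not in grr1-deficient cells (0.50, limma adjusted p = 0.527). UTR reads were compared where each paralog averaged at least 10: of the pairs called in all reads, 5 of 5 had the same sign in grr1-deficient cells, 11 of 15 in WT cells, 8 of 9 for the interaction and 7 of 7 at 0 h. Besides RPP2, the stalk pair RPP1 turned in WT cells. Its ratio changed by 0.66 log2 in all reads (limma adjusted p = 0.00075) and by −1.47 in UTR reads (limma adjusted p = 0.00016).

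**Figure D5:**
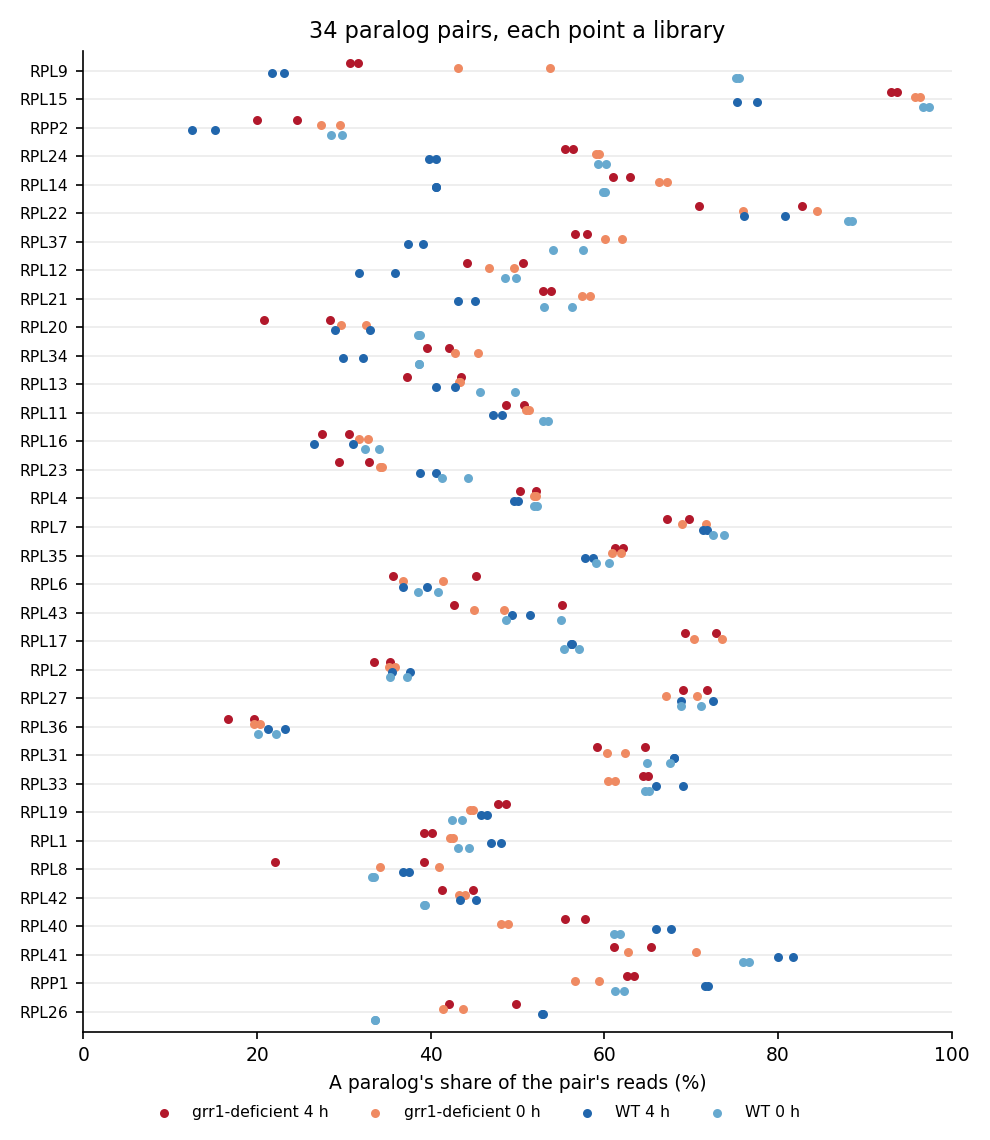
Each point is the A paralog's share (%) of a pair's reads in 1 library, coloured by group, for 34 of the 35 pairs, ordered by the change of the ratio in WT cells from the deepest fall (top) to the highest rise (bottom). RPL9, at the top, spreads most between WT cells at 4 h (23.1 and 21.7%) and 0 h (75.5 and 75.2%), while in RPL17 the points split by strain.

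The members also shared features that the names did not use. A coding region intron was annotated in 53 of 80 (66.2%), against 5.28% of 5988 nuclear genes and 65.5% of small subunit genes. In the 500 bases before the start codon, read on both strands, the Rap1 motif ACCCNNACA was found in 36 of 80 (45%), in 32.7% of small subunit genes and in 5.48% of 5986 genes. The other motifs searched were GACGC for Fhl1 (40% of members, 49.1% of small subunit genes and 30.4% of genes), TCA followed after a gap by ACG for Abf1 (15%, 20% and 22.7%), GATGAG, known as PAC (22.5%, 20% and 28.3%), and AAAATTTT, known as RRPE (16.2%, 7.27% and 12.4%). These matches describe letters and not occupied sites. RPL9A held the Rap1 letters and RPL9B did not, RPL41B held them and RPL41A did not, and neither RPL15 copy held them. The stretches below show the match in capitals, with its distance from the start codon, for those 2 genes and for RPL25 and RPL28, 2 of the single genes described above, on the strand of the gene, where the letters may run in either orientation.
RPL9A, capitals from 310 bases before the start codon, chrVII:228624-228647, minus strand: tccagaaaTGTTTGGGTttatttt
RPL41B, capitals from 344 bases before the start codon, chrIV:222130-222153, minus strand: gttaccacACCCGTACAcccttat
RPL25, capitals from 398 bases before the start codon, chrXV:79942-79965, plus strand: atttaataTGTACGGGTgtttaca
RPL28, capitals from 264 bases before the start codon, chrVII:310695-310718, plus strand: caccagggACCCACACAttaccaa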

How the data were processed

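RNA sequencing of total RNA was analysed from 8 libraries, 2 biological replicates in each of 4 groups per the series' design text, grouped by title. Per the submitters' processing notes, the tools were STAR 2.7.3a, Bowtie2 2.3.5, cutadapt 2.6 and DESeq2, with build R64. Per the file headers, plastid counted reads of 25 to 100 bases at an offset of 25, and the authors deposited read counts for exons, UTRs and coding regions with lengths in bases (no other unit) and RPKM. How multiply mapping reads and strand were treated was not stated. The authors' deposited comparison tables hold log2 fold changes, p-values and adjusted p-values, and the mean normalised signal of each gene, which was not used. RPKM values were checked against the counts and not tested. RPL29 was not analysed here, as its region has no countable length.

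Exon counts were scaled by TMM and fitted over all 4 groups with edgeR 4.0.16 (quasi-likelihood, prior count 0.125, R 4.3.3) on 5855 genes passing its filter on low counts, all 80 members among them, with Benjamini-Hochberg adjustment over all of them and a threshold of 0.05. No member was removed or imputed. Log2 ratios of A to B paralogs with a pseudocount of 0.5 reads were fitted with limma 3.58.1 over 59 pairs and adjusted over those. UTR ratios needed a mean of 10 reads per paralog. DESeq2 1.42.0, other scalings, no filter, coding reads, a pseudocount of 5, a replicate block and each library left out served as alternatives. Scripts were tested on simulated data. Sequences and motifs come from the RefSeq R64 genome (Python 3.11.15, Biopython 1.88), and figures were drawn with matplotlib 3.10.9. Errors are SE of the fits unless said otherwise.

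Values per library are given for the genes without a paralog, the stalk genes, the 3 highest and 3 lowest members of each comparison and of the per-length level in WT cells at 0 h, and the 5 pairs with the largest change of ratio in each strain and in the interaction, 1 of which is not reported here. The members and the gene lists were chosen with earlier results of these data known.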

Additional observations from a re-analysis of the deposited data

Results flagged for a closer look

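The response to tunicamycin differed between the strains by a test of the difference itself, the interaction term, for 79 of the 80 genes (edgeR) and for 10 of 35 pairs (limma). Of the genes named above, the interaction was 4.11 log2 for RPL9A, 3.88 for RPL6A, 3.76 for RPL8B, 1.74 for RPL41B and 1.14 for RPL41A, and in each strain both libraries at 4 h lay below both at 0 h for all 5. For the A to B ratio it was 2.54 log2 for RPL15, 2.35 for RPL9, 0.95 for RPL24 and −0.95 for RPL26. RPL26 was the one of these named pairs in which the A share rose by more in WT cells.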

How the results depend on the processing

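Counts of members called stayed between 79 and 80 for 4 h against 0 h in grr1-deficient cells, 79 and 80 in WT cells, 78 and 80 for the interaction, 70 and 78 for grr1-deficient against WT cells at 4 h and 71 and 76 at 0 h over all alternatives, with DESeq2 at 80, 80, 79, 78 and 76. Leaving out 1 library gave members called of 79 to 80, 80 to 80, 78 to 80, 70 to 78 and 71 to 76, medians of −1.72 to −1.51, −4.69 to −4.56, 2.86 to 3.15, 1.67 to 1.83 and −1.40 to −1.13 log2, and pairs called of 3 to 7 in grr1-deficient cells, 15 to 21 in WT cells, 6 to 12 for the interaction and 3 to 11 at 0 h. Total counts placed the members' median at −3.84 in WT cells, 2.31 for the interaction, 1.48 at 4 h and −0.84 at 0 h, by the shift of all genes given above. In WT cells it was −4.64 with TMM computed without ribosomal protein genes and −4.67 in coding reads. The share of reads was 2.97%, 8.34% and 1.13% over nuclear genes in grr1-deficient cells at 4 h, grr1-deficient cells at 0 h and WT cells at 4 h, and 8.08% in coding reads in grr1-deficient cells at 0 h, and the cause of the last was not tested. UTR reads, with 28 pairs and fewer reads, gave 0 pairs called by limma in grr1-deficient cells (3 at an unadjusted p under 0.05, and 5 by limma in all reads) and 4 at 0 h. They gave 21 in WT cells and 10 for the interaction, against 18 and 10 of 35 pairs in all reads.

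Without both grr1-deficient replicate 2 libraries, where the spread comes from WT cells alone, the medians were −1.79, −4.62, 2.82, 1.67 and −1.14 log2. RPL41A at 4 h ranged from −0.35 to 0.11 with 1 library left out, the change of ratio in grr1-deficient cells from −0.026 to 0.42 for RPL26 and −1.08 to 0.10 for RPL8, and the RPL20 interaction from −0.28 to 0.31. The main fits did not take the replicate numbers to pair samples. The correlation of deviations between 4 h and 0 h was 0.796 in grr1-deficient cells, so replicates of the same number were linked there, and the main fits leave this link out. It was 0 in WT cells, and 0.0146 at 4 h and 0.0016 at 0 h between strains. With a replicate block 79, 80, 79, 78 and 76 members were called, with medians of −1.60, −4.59, 2.996, 1.77 and −1.25, and 5, 19, 10 and 7 pairs. That block is an effect shared by both strains, so it cannot describe a link present in grr1-deficient cells alone. The ratio of RPP2 in grr1-deficient cells (−0.48, limma adjusted p = 0.0339) and of RPL20 in WT cells (−0.49, limma adjusted p = 0.0298) gained a call in that fit. RPL15B in grr1-deficient cells had an edgeR adjusted p of 0.0512 with the block, 0.0524 with DESeq2 size factors and 0.0618 with total counts, and in WT cells −0.48 log2 and 0.0553 with total counts.

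Of 3424 values for single genes and pairs, 3329 kept direction and side of the threshold, 54 lost and 20 gained a call, and 21 changed sign. With total counts the sign turned for the RPL15B interaction (−0.056) and at 0 h for RPL14A (0.034), RPL17A (0.15), RPL40B (0.063) and RPL9B (0.12). At 4 h it turned for RPL15B in coding reads (0.042) and without grr1-deficient replicate 1 (0.17) or WT replicate 1 (0.008) at 4 h, and for RPL41A without grr1-deficient replicate 2 at 4 h (0.11) or at both times (0.11). In UTR reads it turned for RPP2 (0.32 in grr1-deficient cells, 1.08 in WT cells, −0.77 for the interaction, 0.87 at 0 h). Leaving out grr1-deficient replicate 1 at 4 h turned the ratios of RPL26 (−0.026) and RPL8 (0.10) in grr1-deficient cells and the RPL20 interaction (−0.28), which was also negative without grr1-deficient replicate 2 at 0 h (−0.088) or WT replicate 2 at 4 h (−0.12). At 0 h RPP2 was 0.030 without grr1-deficient replicate 2 at 0 h and 0.030 without it at both times. For these the cause was not tested. With 2 libraries a group, a missed call does not show that values were alike, and 2 and 3 UTR reads of RPL9A in WT cells at 4 h limit that ratio.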
